A study of Mus musculus with 20 samples.

Results

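Amacrine cells are the inhibitory interneurons of the inner retina, and 10 genes that mark them were followed here in whole mouse retina. The genes were listed by name, with earlier results of these data known, and all 10 were found among the 35006 genes of the count files. They comprise the GABA-synthesizing enzymes Gad1 and Gad2, the vesicular inhibitory amino acid transporter Slc32a1, the glycine transporter Slc6a9, the acetylcholine- and dopamine-synthesizing enzymes Chat and Th, the transcription factors Pax6, Tcfap2a and Tcfap2b (older symbols of the AP-2 factors Tfap2a and Tfap2b), and the calcium-binding protein calretinin, Calb2.

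The study asked whether N-acetylcysteine ethyl ester (NACET), a cell-permeable cysteine donor, alters the aging retina. Polyadenylated RNA from the retinas of 20 wild-type C57BL/6J mice, an inbred laboratory strain, was sequenced, with 1 retina per mouse. Young control mice (n = 4) were 119 days old and old control mice (n = 4) were 668 days old, without NACET. Young NACET mice (n = 6; 129 days for replicates 1 to 4, 119 days for replicates 5 and 6 by their titles) and old NACET mice (n = 6) received 50 mg/kg per day in the drinking water for 5 days. The old NACET group mixed ages: replicates 1 and 2 were 668 days old, replicates 3 and 4 were 581 days old, and replicates 5 and 6 were 574 days old. The labels also carry a batch tag, an age in days. In old NACET mice it was the same as these ages, and in every old control it was 668. Young control replicates 3 and 4 and young NACET replicates 5 and 6 were labelled female and the other 16 mice male, whereas the methods describe male mice only.

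The libraries held 17700500 to 31081959 counts in named genes. The library labelled old control replicate 4, male, had 59555 Xist counts and 1 count over Y-linked genes, a pattern otherwise seen only in the 4 libraries labelled female. Rod genes summed to 62800 to 95110 CPM (counts scaled to a library total of 1000000) in every library. Genes of the corneal epithelium or of the lens, other tissues of the eye, exceeded 100 CPM in sum in 5 libraries: old control replicate 2, young NACET replicates 3, 4 and 5, and old NACET replicate 1, where lens genes reached 11320 CPM.

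In the retina, GABAergic amacrine cells make GABA from glutamate with Gad1 and Gad2, and glycinergic amacrine cells take up glycine through Slc6a9. Slc32a1 loads either transmitter into synaptic vesicles. Starburst amacrine cells release acetylcholine as well as GABA, and a sparse population with large arbors releases dopamine. Pax6 and the AP-2 factors are transcription factors present in amacrine cells. The genes are not all private to amacrine cells: horizontal cells also use Slc32a1 and the AP-2 factors, retinal ganglion cells contain Calb2 and Pax6, and Muller glia contain Pax6. In whole retina, fewer cells of a type and less RNA per cell cannot be told apart.

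The levels of the members, as CPM per kilobase of the longest coding transcript, spanned a wide range (the plot of levels per transcript length). Calb2 was at the top, with 248 ± 43.2 CPM per kilobase (SD, n = 20), and Gad1 followed with 68.8 ± 6.89. Pax6 stood at 32.5 ± 3.37, Slc6a9 at 26.7 ± 2.66, Tcfap2b at 20.4 ± 2.69 and Slc32a1 at 20.3 ± 2.65 CPM per kilobase. Gad2 reached 9.96 ± 1.25, Chat 5.97 ± 0.823, Tcfap2a 5.73 ± 0.795 and Th 1.35 ± 0.319 CPM per kilobase. Most steps in this order were seen in 20 of 20 libraries, but Tcfap2b exceeded Slc32a1 in only 12 of 20 and Chat exceeded Tcfap2a in only 11 of 20, so neighbours in those pairs did not differ beyond their spread. With the length of all annotated exons in place of the transcript, Pax6 moved from place 3 to place 6, since its annotated exons sum to 19833 bases against 8401 bases in the transcript. The order of Slc6a9, Tcfap2b and Slc32a1 was turned round on that scale, with Slc32a1 at place 3, Tcfap2b at place 4 and Slc6a9 at place 5, so the order among these 4 genes depends on the length used.

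**Figure D1:**
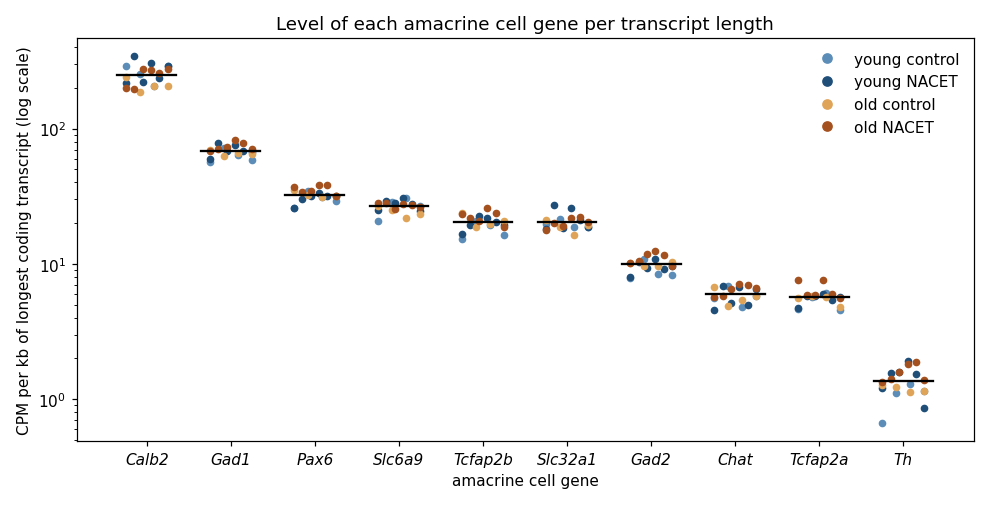
Level of each amacrine cell gene as CPM per kilobase of its longest coding transcript (log axis), with 1 point per retina coloured by group and a black line at the mean over 20 libraries. Calb2 lies near 248 and Th near 1.35 CPM per kilobase, and the points of Tcfap2b and Slc32a1, and of Chat and Tcfap2a, overlap.

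Gad1, the isoform that supplies most GABA of the cell body, lies on chromosome 2 (70391129 to 70440071, plus strand, mm9). Its CPM was 189.9, 240.2, 214 and 197 in the 4 young controls and 234, 210.4, 221 and 219 in the 4 old controls. Young NACET retinas ranged from 199 to 262 with a median of 230.3, and old NACET retinas ranged from 227 to 277 with a median of 242. The old NACET libraries thus stood mostly, but not wholly, above the old controls. The difference was 0.16 ± 0.06 (log2 fold change ± SE; adjusted p = 0.208, edgeR quasi-likelihood test), equal to 11.8% with a 95% interval of 2.79 to 21.6%. In young mice the difference between NACET and control was 0.14 ± 0.08 (adjusted p = 1, same test). Between the control groups of either age Gad1 differed by 0.02 ± 0.07 (adjusted p = 0.893), with an interval of -7.91 to 12.4%. A pseudogene, Gad1-ps, was listed at 18.2 to 28.3 CPM and followed Gad1 across libraries (r = 0.893, n = 20), so some reads could have been divided between them.

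Gad2, the isoform of nerve terminals, lies on chromosome 2 (22477725 to 22549394, plus strand, mm9). The young controls gave 44.8, 62.9, 48.1 and 47.9 CPM, and the old controls gave 58.6, 55.6, 55.8 and 59.5 CPM. In young NACET retinas Gad2 ranged from 46.1 to 62.8 CPM (median 54.4), and in old NACET retinas from 55.8 to 71.3 CPM (median 63.6). Young control replicate 2 lay within the range of the old groups, while its 3 companions lay below every old library. The log2 difference was 0.13 ± 0.06 for old NACET against old control (adjusted p = 0.358) and 0.16 ± 0.07 for old NACET against young NACET (adjusted p = 0.201), both from the edgeR test.

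Gad1 and Gad2 varied together from retina to retina more closely than most member pairs (r = 0.895, rho = 0.874, n = 20 libraries), also after the mean of each group was subtracted (r = 0.907). Without the pair of libraries farthest from the Gad2 median, r was 0.835. Their upstream sequences are shown because this pair shares a reaction and a profile. Each is the 250 bases before the RefSeq start on the gene's strand (GRCm38.p6), with capitals at matches to the AP-2 letters GCCNNNGGC, which are also their own reverse complement. Among 32851 RefSeq windows of this length, 13.7% held such a match.
Gad1, chr2:70561879-70562128, plus strand: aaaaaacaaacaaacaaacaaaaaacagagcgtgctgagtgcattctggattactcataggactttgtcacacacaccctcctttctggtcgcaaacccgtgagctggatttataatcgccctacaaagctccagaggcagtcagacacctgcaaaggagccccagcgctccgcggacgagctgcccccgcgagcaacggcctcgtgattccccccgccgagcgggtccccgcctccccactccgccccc
Gad2, chr2:22622077-22622326, plus strand: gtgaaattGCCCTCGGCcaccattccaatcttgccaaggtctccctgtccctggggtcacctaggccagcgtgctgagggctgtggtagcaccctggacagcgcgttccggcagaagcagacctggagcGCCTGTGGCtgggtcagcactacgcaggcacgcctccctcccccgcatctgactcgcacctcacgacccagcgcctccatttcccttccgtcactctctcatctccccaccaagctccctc
The Gad2 window held 2 matches, at -242 and -121 from the start, and the Gad1 window held 0. A match is a description of letters and not of binding.

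Slc32a1, the transporter that fills vesicles with GABA and glycine, lies on chromosome 2 (158436494 to 158441484, plus strand, mm9). It measured 55.1, 60.3, 52.6 and 52.4 CPM in young controls and 58.7, 52.1, 45.6 and 54.1 CPM in old controls. Young NACET retinas spread from 50.9 to 76.3 CPM (median 55.7), since replicates 2 and 4 reached 76.3 and 72.8 CPM while the other 4 lay from 50.9 to 59.1. Old NACET retinas ranged from 49.9 to 62.2 CPM (median 56.9) and overlapped every other group. Each pairwise log2 difference of Slc32a1 was between -0.14 and 0.12, with adjusted p from 0.424 to 1.

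Slc6a9, the plasma membrane transporter GlyT1 that concentrates glycine in amacrine cells, lies on chromosome 4 (117507111 to 117547803, plus strand, mm9). The young controls gave 72.3, 100.6, 106 and 93.6 CPM, and the old controls gave 93.9, 86.4, 76.5 and 80.7 CPM. Old NACET retinas were tightly grouped, from 88.9 to 98.2 CPM (median 96.2), and only old control replicate 1 reached that range. Their difference from old controls was 0.16 ± 0.05 (log2; adjusted p = 0.135, edgeR), equal to 11.9% with an interval of 4.30 to 20.0%. DESeq2, the tool of the study, gave an adjusted p of 0.0487 for this difference. Young NACET retinas ranged from 85.5 to 107 CPM (median 97.1) and overlapped young controls. Old and young controls differed by -0.19 ± 0.10 (log2; adjusted p = 0.361). Exons of B4galt2 and Ccdc24, at medians of 57.0 and 70.5 CPM, overlap Slc6a9 on the other strand, and counting took no account of strand, so reads in the overlap cannot be assigned. Across libraries Slc6a9 was weakly related to Ccdc24 (r = 0.282) and to B4galt2 (r = 0.181).

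Chat, choline acetyltransferase of the starburst cells, lies on chromosome 14 (33221389 to 33279095, minus strand, mm9). It was 15.7, 19.1, 13.5 and 16.4 CPM in young controls and 19.0, 13.6, 15.2 and 16.2 CPM in old controls. Young NACET retinas ranged from 12.8 to 19.4 CPM (median 16.5) and old NACET retinas from 16.1 to 19.8 CPM (median 18.4). All groups overlapped. Old NACET differed from old control by 0.18 ± 0.09 (log2; adjusted p = 0.372) and young NACET from young control by 0.00 ± 0.13 (adjusted p = 1, interval -17.1 to 21.2%), both by edgeR.

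Th, tyrosine hydroxylase of the dopaminergic cells, lies on chromosome 7 (150078657 to 150117033, minus strand, mm9). With 26 to 95 counts per library it was the lowest and most variable member, with a coefficient of variation of 23.6% over the 20 libraries against 9.97 to 17.4% for the others. Young controls gave 1.34, 2.21, 2.57 and 2.28 CPM, and old controls gave 2.56, 2.44, 2.24 and 2.28 CPM. Young NACET retinas ranged from 1.72 to 3.81 CPM (median 3.07), and old NACET retinas from 2.67 to 3.75 CPM (median 2.98). Th was the only member whose libraries did not overlap between old NACET and old control, the lowest treated value of 2.67 lying just above the highest control value of 2.56; 1.76% of all genes tested were higher in this way. The log2 difference was 0.38 ± 0.13 (adjusted p = 0.188, edgeR), equal to 30.4% with an interval of 7.63 to 58.0%. In young mice it was 0.44 ± 0.21 (adjusted p = 1), and 5 of 6 young NACET libraries exceeded the median of the young controls. Without the 5 libraries with corneal or lens genes, the young difference was 0.23 ± 0.25, and among mice labelled male it was 0.78 ± 0.27, so its size depended on which animals were counted.

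The Th window is shown because this promoter is known for a cyclic AMP response element, whose letters TGACGTCA (the same on either strand, in capitals) were found 45 bases before the start. Only 1.55% of the 32851 windows held these letters, and among the 9 members with a RefSeq window Pax6 was the other with a match, at -76. The Pax6 window, from the first of its 2 listed starts, also held an AP-2 match at -221. Pax6 and Gad2 were the 2 members with AP-2 letters, in 2 of 13 member windows, a share near the 13.7% of all windows.
Th, chr7:142899996-142900245, minus strand: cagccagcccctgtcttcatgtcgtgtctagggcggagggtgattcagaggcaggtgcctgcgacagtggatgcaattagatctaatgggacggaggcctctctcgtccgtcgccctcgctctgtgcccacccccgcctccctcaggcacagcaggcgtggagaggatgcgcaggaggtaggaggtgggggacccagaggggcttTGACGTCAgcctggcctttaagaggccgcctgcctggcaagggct
Pax6, chr2:105668646-105668895, plus strand: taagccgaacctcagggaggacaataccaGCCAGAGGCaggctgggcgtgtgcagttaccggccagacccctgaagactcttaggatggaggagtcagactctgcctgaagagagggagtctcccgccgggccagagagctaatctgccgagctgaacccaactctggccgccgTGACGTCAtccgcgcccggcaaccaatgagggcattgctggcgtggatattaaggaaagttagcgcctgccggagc

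Pax6, a paired-box and homeodomain factor, lies on chromosome 2 (105509053 to 105543317, plus strand, mm9). Young controls gave 218, 291, 263 and 245 CPM, and old controls gave 293, 271, 264 and 265 CPM. Young NACET retinas ranged from 216 to 279 CPM (median 267), and old NACET retinas ranged from 266 to 323 CPM (median 300.0). Among NACET-treated mice, 5 of 6 old libraries lay above all young ones, and old replicate 6 lay among them. The log2 difference between old and young NACET was 0.16 ± 0.06 (adjusted p = 0.10 by edgeR and 0.0464 by DESeq2), and without old NACET replicate 6 it was 0.19 (adjusted p = 0.0479, edgeR). The fit without old NACET replicate 6 called 922 of 16366 genes tested, where the fit with all libraries called 795 of 16276. Against old controls old NACET differed by 0.12 ± 0.06 (adjusted p = 0.330, edgeR). Exons of Elp4, at a median of 10.9 CPM, overlap Pax6 on the other strand.

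The AP-2 factors Tcfap2a (chromosome 13, 40811044 to 40829192, minus strand, mm9) and Tcfap2b (chromosome 1, 19198995 to 19228815, plus strand, mm9) act in amacrine and horizontal cells. Tcfap2a measured 14.3, 17.6, 18.7 and 14.0 CPM in young controls and 17.2, 18.0, 17.7 and 14.8 CPM in old controls. In old NACET retinas it ranged from 17.2 to 23.7 CPM (median 18.4), with replicates 1 and 4 at 23.7 and 23.3 CPM and the other 4 at or below 18.5 CPM. Its log2 difference from old control was 0.22 ± 0.10 (adjusted p = 0.315, edgeR), and in young NACET retinas, at 14.6 to 18.4 CPM (median 17.6), it was 0.07 ± 0.09.
Tcfap2b measured 92.1, 127, 117 and 98.9 CPM in young controls and 144, 113, 119 and 125 CPM in old controls. Young NACET retinas ranged from 100.3 to 138 CPM (median 121) and old NACET retinas from 113 to 156 CPM (median 137). The log2 difference of Tcfap2b was 0.15 ± 0.08 in young and 0.10 ± 0.07 in old mice, with adjusted p of 1 and 0.559 by edgeR.

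Calb2, calretinin, lies on chromosome 8 (112661402 to 112692110, minus strand, mm9) and had the largest difference of the 10 genes between the control groups. Young controls gave 412, 364, 294 and 413 CPM, and old controls gave 342, 267, 298 and 293 CPM. Old controls stood below 3 of the 4 young controls, and young control replicate 3 lay among them. The log2 difference was -0.36 ± 0.11 (adjusted p = 0.123 by edgeR and 0.0241 by DESeq2), equal to -21.9% with an interval of -33.5 to -8.35%. Without young control replicate 3 it was -0.45 and passed the edgeR threshold (adjusted p = 0.0429), and without the library labelled old control replicate 4 it was -0.35 (adjusted p = 0.247). Retinal ganglion cell genes lay on the same side in this comparison: 0 of 11 had a positive log2 difference, with a median of -0.29, and their sum was 925 to 1211 CPM in old and 1012 to 1324 CPM in young controls. At an unadjusted p of 0.05, 6 of the 11 were lower, and the smallest adjusted p among them was 0.0637 (edgeR). Over all genes tested, 48.2% had a positive difference and 7.24% were lower at an unadjusted p of 0.05. The part of the ganglion cell genes in the Calb2 difference was not tested. Young NACET retinas were widely spread in Calb2, from 311 to 491 CPM (median 377).

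Old NACET retinas fell into separate ranges of Calb2 by age: the pair of 668-day mice gave 288 and 279 CPM, and the 4 mice of 574 and 581 days gave 367 to 395 CPM. Every 574- and 581-day library exceeded every 668-day library, treated or not. For old NACET against old control the log2 difference of Calb2 was 0.23 ± 0.10 with all ages (adjusted p = 0.331) and -0.09 ± 0.08 within the 668-day mice (adjusted p = 0.831), both by edgeR. Retinal ganglion cell genes summed to 1189 to 1355 CPM in the 574- and 581-day libraries, 1016 to 1024 in the 668-day treated libraries and 925 to 1211 in the old controls. Their part in the Calb2 difference was not tested. Every untreated old mouse analysed here was 668 days old, with a batch tag of 668. Age, batch and treatment therefore cannot be told apart in the 4 libraries of 574 and 581 days.

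**Figure D2:**
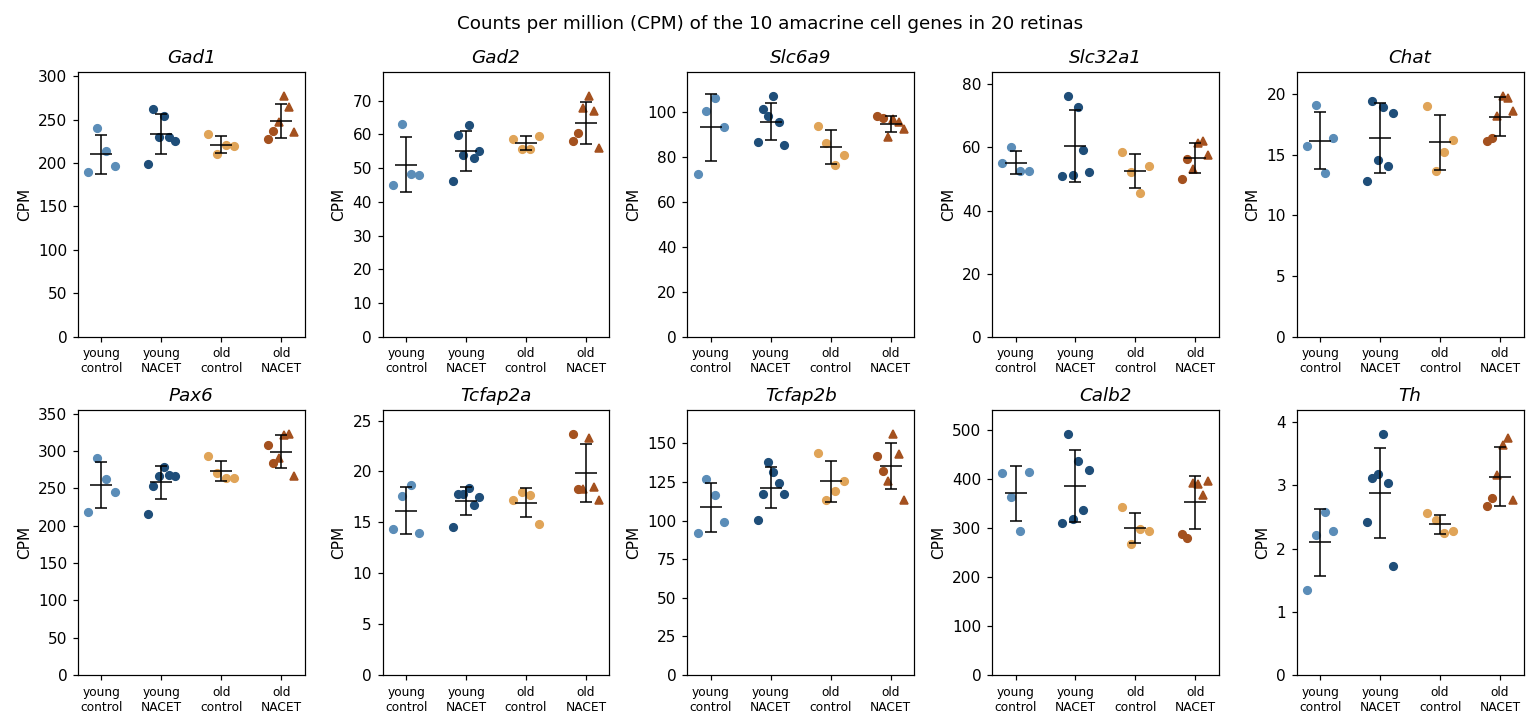
CPM of the 10 amacrine cell genes in 20 retinas by group (1 point per mouse; black bar and whiskers, mean ± SD; triangles, old NACET mice of 574 or 581 days). The old NACET points of Th all lie above the old control points, and the triangles of Calb2, at 367 to 395 CPM, lie above the circles of the 668-day mice.

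Across the whole set, 0 of 10 members passed an adjusted p of 0.05 in any of the planned comparisons by edgeR. The share of all genes tested that passed was 1.42% for old against young controls, 0.543% for old NACET against old control, 0% for young NACET against young control, 4.88% for old against young NACET and 0% for the interaction of NACET with age, so with 10 genes a count of 0 is near the background. Libraries were simulated for old against young controls and for old NACET against old control, with the same dispersion for every gene. There, changes somewhat larger than any member difference in the planned comparisons were recovered only in part. A count of 0 therefore does not show that the members were unaltered. The other comparisons were not simulated. DESeq2 called 1 member in each of 3 comparisons, namely Calb2 between the controls, Slc6a9 between the old groups and Pax6 between the NACET groups. Over all genes it called 721 of 25098, 375 of 25388 and 1326 of 25509 in these comparisons, where edgeR called 234, 90 and 795.

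For old NACET against old control, 10 of 10 members had a positive log2 difference, from 0.10 to 0.38 with a median of 0.16, beside a median of 0.00 and 50.8% positive over all genes tested. At an unadjusted p of 0.05, 6 members were higher (Gad1, Slc6a9, Pax6, Tcfap2a, Calb2 and Th) and 0 lower, where 6.68% of all genes tested were higher. The members share libraries and, in part, cells, and are not replicates of the treatment. Rod genes, which make up several percent of all counts, summed to 62800 to 75300 CPM in old NACET and 69910 to 84300 CPM in old control retinas, and Muller glia genes to 2355 to 2701 and 2191 to 2504 CPM. Retinal ganglion cell genes had a positive difference in 11 of 11 cases, with a median of 0.16, the same as that of the members. The part of these shifts in the members' differences was not tested.

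Restricted to 668-day mice (2 treated, 4 controls), 9 of 10 members kept a positive difference and their median was 0.09, beside a median of 0.00 over all genes tested. Slc6a9 (0.21 ± 0.07) and Tcfap2a (0.30 ± 0.11) were then at an unadjusted p below 0.05, with adjusted p of 0.546 and 0.550 by edgeR. Of the 2 treated libraries in this setting, old NACET replicate 1 held lens genes at 11320 CPM. Its Tcfap2a was 23.7 CPM, against 18.2 CPM in old NACET replicate 2. The part of lens tissue in these differences was not tested. In that setting 1396 of 16839 genes tested were at an unadjusted p below 0.05. Within these mice Gad1 differed by 0.06 ± 0.06, Gad2 by 0.04 ± 0.06, Chat by 0.02 ± 0.11, Slc32a1 by 0.01 ± 0.09 and Th by 0.19 ± 0.17, each a smaller value than with all ages. Pax6 (0.11 ± 0.06) and Tcfap2b (0.12 ± 0.08) were near their values with all ages. Without the libraries carrying corneal or lens genes, the median of the members was 0.16 and 10 of 10 were positive, beside a median of 0.00 over all genes tested. Without the library labelled old control replicate 4 the median was 0.16. In that fit 4 members were at an unadjusted p below 0.05, beside 1931 of 16685 genes tested.

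**Figure D3:**
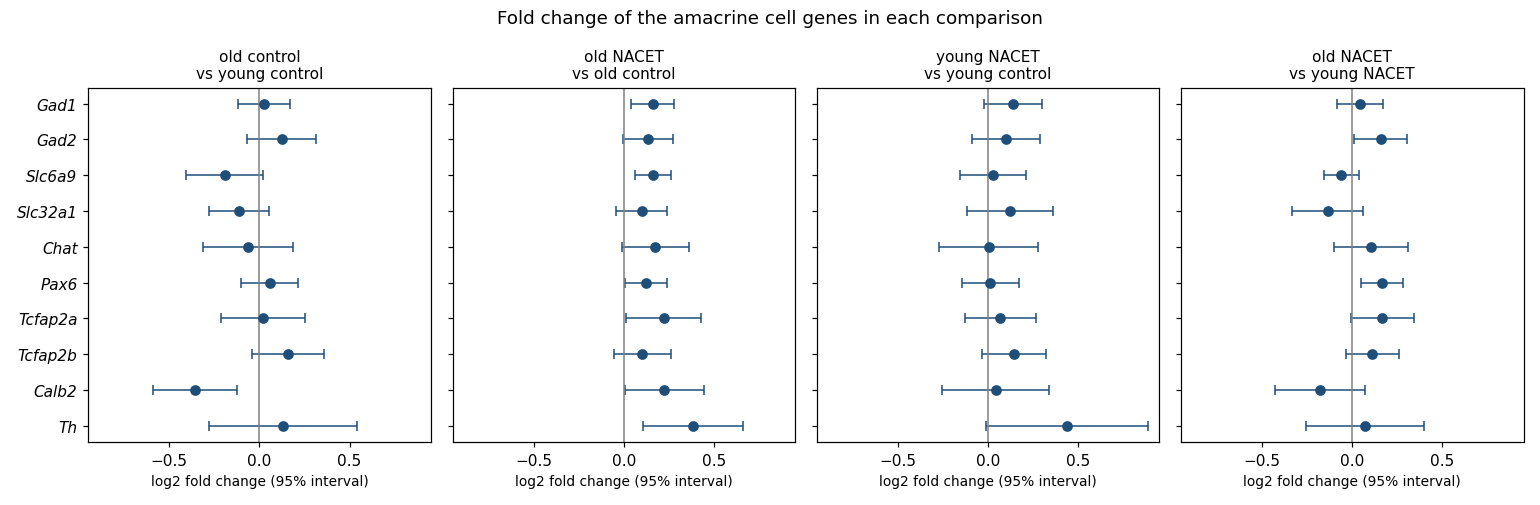
Log2 fold change (points) and 95% interval (bars) of each amacrine cell gene in the 4 pairwise comparisons, from edgeR. In old NACET against old control all points lie right of 0, from 0.10 to 0.38, while in the controls Calb2 lies left of 0 at -0.36.

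For young NACET against young control, 10 of 10 members were again on the positive side, but closer to 0, with differences of 0.00 to 0.44 and a median of 0.08, beside 48.0% positive over all genes tested. None was at an unadjusted p below 0.05, as 4.36% of all genes tested were. The batch tag of the labels is 119 for all young controls and for young NACET replicate 5. It is 129 for the other 5 young NACET libraries, replicate 6 included although its title gives 119 days. With this tag as a covariate, so that the NACET difference rested on replicate 5 alone, 8 of 10 were positive with a median of 0.05, and among mice labelled male 7 of 10 with a median of 0.09. The median over all genes tested was -0.01 in both settings.

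Between old and young controls, 6 of 10 members were positive, with a median of 0.02, beside 48.2% of all genes tested. Calb2 alone was at an unadjusted p below 0.05, on the lower side, where 7.24% of all genes tested lay. Between old and young NACET, 7 of 10 were positive with a median of 0.09, beside 49.65% of all genes tested. Pax6 and Gad2 were higher at an unadjusted p below 0.05, as were 10.4% of all genes. In these comparisons no member separated the groups without overlap, against 11.3% of all genes for the controls, 0.723% for young NACET against young control and 4.07% for old against young NACET.

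The effect of NACET did not detectably differ with age for any member. The interaction ranged from -0.06 for Th to 0.18 for Calb2 on the log2 scale, the smallest unadjusted p was 0.207 (Slc6a9), and 0 of 10 were at an unadjusted p below 0.05, where 6.19% of all genes tested were. The intervals were wide, from -32.5 to 37.1% for Th and from -11.7 to 15.9% for Gad1, so differences of that size between ages were not detectable with these groups.

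A model with age and NACET as additive terms over all 20 libraries was chosen after the data had been seen. In it all 10 members had a positive difference with NACET, from 0.07 to 0.41 with a median of 0.12. Over all genes tested, 49.4% were positive. The members share libraries and are not independent. Th (0.41 ± 0.12, adjusted p = 0.215) and Gad1 (0.15 ± 0.05, adjusted p = 0.236) had the smallest p-values, and Gad2, Tcfap2a and Tcfap2b were also below an unadjusted 0.05. That made 5 of 10, beside 4.40% of all genes tested, and 0 of 10 passed the adjusted threshold, beside 0.0706%. For age in the same model, Gad2 (0.14 ± 0.06), Pax6 (0.12 ± 0.05) and Tcfap2b (0.13 ± 0.06) were higher in old retinas at an unadjusted p below 0.05, as were 13.9% of all genes. Calb2 (-0.25 ± 0.09) and Slc6a9 (-0.12 ± 0.05) were lower, as were 14.0%. With adjusted p of 0.0731 for Calb2, 0.0848 for Pax6 and 0.0923 for Gad2, 0 of 10 passed by edgeR, where 12.8% of all genes did.

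A further 40 amacrine genes in 6 lists were read, of which those with too few counts were not tested. Among the tested ones, 0 passed the adjusted threshold in the planned comparisons, where 0 to 4.88% of all genes tested did. For old NACET against old control, 50.8% of all genes tested had a positive difference. GABA uptake and breakdown genes had 6 of 6 positive in that comparison, with a median of 0.07. Among them was the GABA transporter Slc6a11 (0.12 ± 0.05, adjusted p = 0.224, edgeR). The cholinergic list had 3 of 4 positive with a median of 0.06, including Ache, which breaks down acetylcholine (0.13 ± 0.05, adjusted p = 0.215). Glycine genes had 2 of 5 positive, and of the dopaminergic list 3 of 5 genes were tested, with 2 positive and the factor Nr4a2 at -0.30 ± 0.12 (adjusted p = 0.249). The subtype markers had 5 of 5 positive with a median of 0.12, and 11 of 13 tested amacrine transcription factors were positive, with a median of 0.12. Only Meis2, a homeodomain factor of GABAergic amacrine cells, was called, and only for age in the additive model (0.19 ± 0.04, adjusted p = 0.000945, edgeR), where 12.8% of all genes tested were called.

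From retina to retina the members formed overlapping sets (the heat map of correlations). Over 20 libraries, 42 of 45 member pairs had a positive r of log2 CPM, with a median of 0.548, and 42 of 45 were positive within groups. All points share library depth and composition, so these values are descriptive. Pax6 and Tcfap2b were the closest pair (r = 0.902, rho = 0.857; 0.905 within groups), and Pax6 with Tcfap2a reached 0.790. Most members ran opposite to the summed rod genes, with r of -0.906 for Pax6, -0.857 for Tcfap2b, -0.785 for Tcfap2a, -0.704 for Gad2, -0.655 for Gad1 and -0.603 for Th. It was -0.452 for Chat, -0.392 for Slc6a9, -0.0443 for Slc32a1 and 0.131 for Calb2. Without the pair of libraries farthest from the rod median, r for Pax6 was -0.849. CPM are shares of 1 total, so a smaller rod share leaves larger shares for other genes, and the part of this in the relation was not tested.

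**Figure D4:**
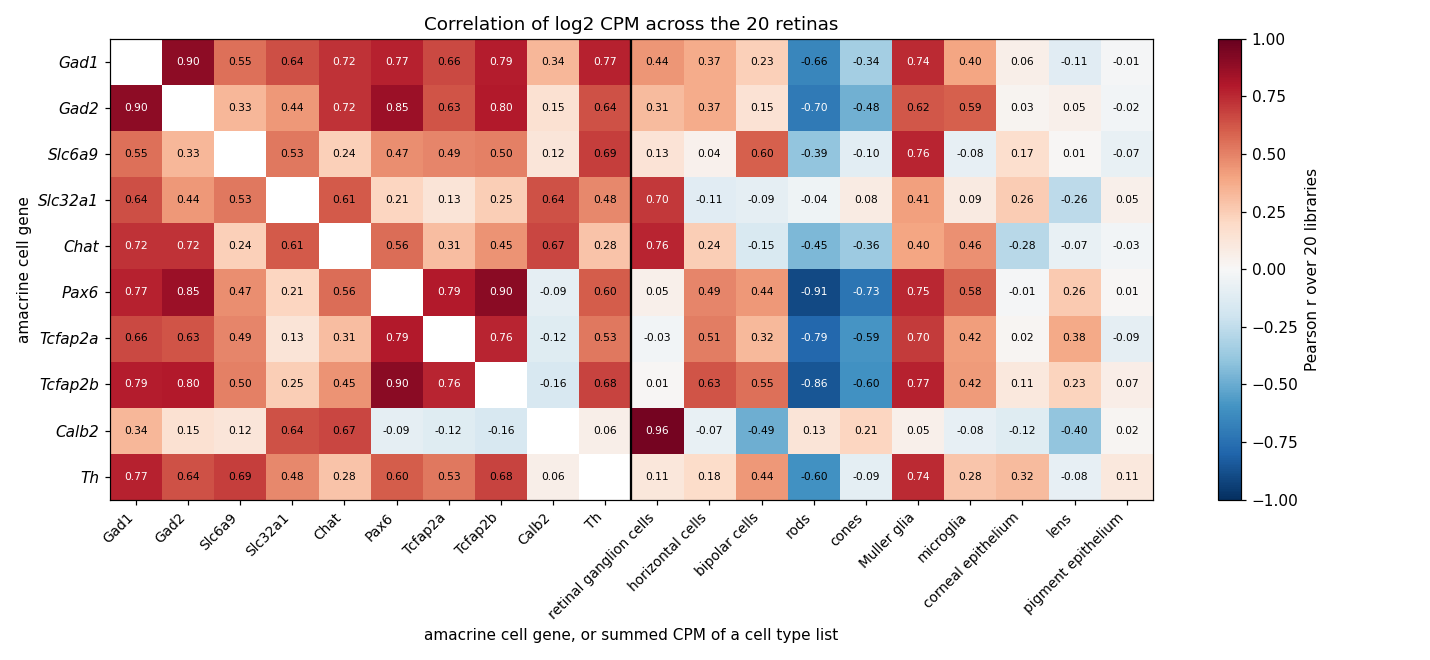
Pearson r of log2 CPM over 20 retinas between amacrine cell genes (left of the line) and between each gene and the summed CPM of cell type lists (right of the line); red is positive and blue negative. Gad1 with Gad2 and Pax6 with Tcfap2b are near 0.90, Calb2 with retinal ganglion cell genes is 0.96, and Pax6 with rod genes is -0.91.

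Calb2 was related to some members only. Its r was 0.665 with Chat, 0.639 with Slc32a1 and 0.335 with Gad1. It was lower with Gad2 (0.155), Slc6a9 (0.122), Th (0.0621), Pax6 (-0.090), Tcfap2a (-0.123) and Tcfap2b (-0.158). Calb2 followed the summed retinal ganglion cell genes more closely (r = 0.957, rho = 0.914). That r was 0.937 without the pair of libraries farthest from the median of the sum and 0.959 within groups. Chat (0.761) and Slc32a1 (0.705) also followed these genes. The 3 genes most like Calb2 among 14979 with a mean of at least 1 CPM were Thy1 (0.974), Tubb3 (0.949) and Acot7 (0.948), of which Thy1 belongs to the ganglion cell list.

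**Figure D5:**
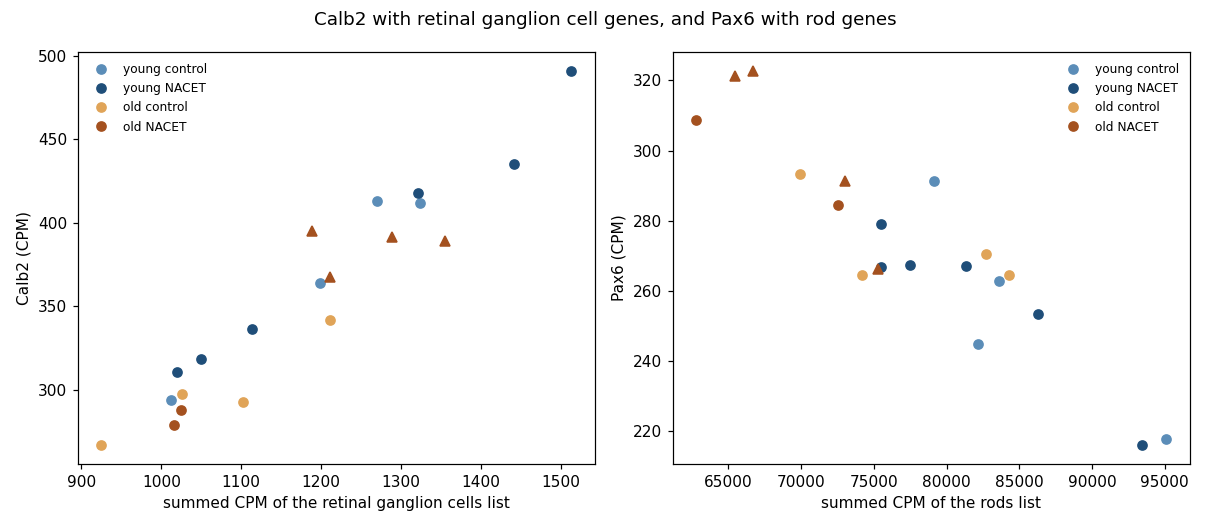
Left, Calb2 CPM against the summed CPM of 11 retinal ganglion cell genes; right, Pax6 CPM against the summed CPM of 8 rod genes, with 1 point per retina and triangles for old NACET mice of 574 or 581 days. Calb2 climbs with the ganglion cell sum (r = 0.957 on log2 values) and Pax6 declines with the rod sum (r = -0.906).

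For the other members, the closest genes over the 20 libraries were Celf4 for Gad1 (r = 0.913), Gad1 for Gad2 (0.895), Hip1 for Slc6a9 (0.897), Igsf8 for Slc32a1 (0.939) and Chn1 for Chat (0.935). Snhg11 was closest to Pax6 (0.932), Fmnl2 to Tcfap2a (0.857), Gucy1a3 to Tcfap2b (0.944) and Meaf6 to Th (0.878). Most members followed the Muller glia sum: r was 0.770 for Tcfap2b, 0.760 for Slc6a9, 0.750 for Pax6, 0.743 for Gad1 and for Th, 0.702 for Tcfap2a and 0.623 for Gad2, but 0.410 for Slc32a1, 0.397 for Chat and 0.047 for Calb2.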

How the data were processed

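Retinal polyA RNA was sequenced from 20 mice. The authors aligned reads to mm9 with TopHat2 2.1.0 and counted them per gene with HTSeq 0.11.2 without regard to strand; the annotation is not given in the sources used here. The deposited values are raw counts. Rows naming no gene, at most 0.00157% of counts, and HTSeq's summary rows were left out. CPM used the total over named genes. Differences were tested with edgeR 4.0.16 (TMM, filterByExpr, quasi-likelihood test, Benjamini-Hochberg over all genes tested, adjusted p below 0.05) on the groups compared, and on all libraries for the interaction; DESeq2 1.42.0 was an alternative. The SE is the log2 difference over the root of F. The script was tested on simulated data, where estimates were unbiased but small changes were recovered only in part; the recovery asked for was then limited to larger changes. Members, lists and tests were chosen with earlier results of these data known. The plan was to name all members in every comparison, other amacrine genes where called, and the 3 genes of highest Pearson r (prior count 1) per member. The text departs from it. Some comparisons name only some members. Slc6a11, Ache and Nr4a2 are named though not called, and only Calb2 is given 3 like genes. Replicate pairs within groups differed beyond sampling noise (chi-square per degree of freedom 2.52 to 32.2 in 42 pairs). Lengths and mm9 positions are from GENCODE vM1, upstream sequences from RefSeq. Slc18a3 was not analysed here.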

Additional observations from a re-analysis of the deposited data

How the results depend on the processing

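No member passed the adjusted threshold with edgeR under TMM, and the same held with RLE scaling, without the filter on low counts and in a fit of all 4 groups. DESeq2 gave 1 called member in each of old control against young control (Calb2), old NACET against old control (Slc6a9) and old NACET against young NACET (Pax6). It also called more of all genes than edgeR there: 721 against 234, 375 against 90 and 1326 against 795. Leaving out single libraries gave 0 to 1 called members between the controls (Calb2, without young control replicate 3) and between the NACET groups (Pax6, without old NACET replicate 6), 0 to 2 for age in the additive model (Gad2 and Pax6 without young control replicate 2, and 1 of Slc6a9, Calb2 and Pax6 without young control replicate 1 or 3, young NACET replicate 3 or old NACET replicate 6), and 0 in the other comparisons. Over all genes tested, edgeR called 153 between the controls without young control replicate 3, against 234 with all libraries. Between the NACET groups it called 922 without old NACET replicate 6, against 795 with all libraries. For age in the additive model, the fits that called a member called 1964 to 2451 genes, against 2173 of 16993 with all libraries. A count of 1 or 2 members for age is therefore near the background. Scaling libraries by TMM before taking CPM moved no group mean by more than its SD. Deviations of same-numbered libraries from their group means were weakly correlated (-0.145 to 0.123), which cannot settle whether the animals were paired. With a replicate block no member was called.

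The following signs changed, each in a difference that was not called, and the cause was not tested. Between controls, Gad1 was -0.011 among mice labelled male, a set that keeps the library labelled old control replicate 4 with its high Xist counts. Without the libraries with corneal or lens genes Chat was 0.0012 and Tcfap2a -0.022. For old NACET against old control, Calb2 was -0.086 within 668-day mice. For young NACET against young control, Pax6 was -0.013 with the replicate block, -0.025 among labelled males and -0.014 without the libraries with corneal or lens genes. In the same comparison Chat was -0.11 and Calb2 -0.021 among labelled males, and -0.22 and -0.16 with the batch tag as covariate, where young NACET replicate 5 is the only treated library with the tag of the controls (the tag of replicate 6 conflicts with its title). For old against young NACET, Th was -0.043 among labelled males. In the interaction, Th was 0.22 without the libraries with corneal or lens genes.

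Leaving out single libraries gave these ranges across 0. Between controls, Gad1 ranged from -0.011 to 0.082, Chat from -0.14 to 0.014, Tcfap2a from -0.050 to 0.099 and Th from -0.018 to 0.24. For young NACET against young control, Slc6a9 ranged from -0.061 to 0.11, Chat from -0.070 to 0.081, Pax6 from -0.040 to 0.069 and Calb2 from -0.048 to 0.12. For old against young NACET, Th ranged from -0.035 to 0.15. In the interaction, Gad1 ranged from -0.044 to 0.058, Gad2 from -0.076 to 0.075, Slc32a1 from -0.079 to 0.060, Tcfap2b from -0.12 to 0.011 and Th from -0.17 to 0.090. All 10 differences for old NACET against old control kept their sign in each of the 10 such fits, and so did the 10 NACET differences of the additive model in 20 fits. The additive model and the setting without corneal or lens libraries were chosen after the data had been seen. Th, at 26 to 95 counts per library, was limited by depth more than the other members.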
